A study of Mus musculus with 6 samples.

Results

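The insulin-like growth factor (IGF) pathway was followed through 9 of its genes in gonads of male mouse embryos. The genes were the ligand Igf1, the receptors Igf1r and Insr, the adaptors Irs1 and Irs2, and the binding proteins Igfbp2, Igfbp3, Igfbp4 and Igfbp5. They were taken by symbol from a table of 16862 genes. All 9 were listed and all 9 passed the filter on low values (at least 10 in at least 3 libraries), as did 15116 genes in all. RNA sequencing compared 3 knockout (KO) with 3 wild-type (WT) libraries. The KO embryos were L/H-Pgds-/-, lacking both the lipocalin-type and the hematopoietic prostaglandin D synthase. Both genotypes were of the C57BL/6 strain, at E13.5 (embryonic day), and the labels call the animals littermates. Which parts of the synthase genes are missing, and in which cells, is not given in the sources used here. The libraries keep the numbers of their labels, 5, 7 and 8 for KO and 1, 3 and 4 for WT.

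IGF1 and IGF2 bind the IGF1 receptor, and insulin and IGF2 also bind the insulin receptor. Both receptors are tyrosine kinases that pass the signal through the adaptor proteins IRS1 and IRS2 to PI3 kinase, AKT and mTOR, and through Ras to the MAP kinases. IGF-binding proteins hold the ligands outside the cell and can limit or prolong their access to the receptor. In mice, loss of insulin and IGF1 receptors together impairs testis formation, and IGF signalling is a known requirement of Sertoli cell proliferation.

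Values are upper-quartile normalised pseudo-counts, which the authors derived from reads and which are not reads, so the depth is unknown. They summed to between 21657342 and 21846849 per KO library and between 22881124 and 23734462 per WT library. Ptgds, the gene of the lipocalin-type enzyme, held 15.2, 4.0 and 2.94 in KO libraries 5, 7 and 8, against 6560, 8137 and 8712 in WT libraries 1, 3 and 4. Hpgds, the gene of the hematopoietic enzyme, held 87.8, 87.3 and 104 in KO, against 45.0, 47.5 and 55.0 in WT, so its value does not check that side of the genotype. Markers of the labelled tissue were present in every library. Sox9, which directs Sertoli cell differentiation, lay between 2166 and 2350 in KO and between 1442 and 2189 in WT. Foxl2, a marker of ovarian supporting cells, lay between 12.3 and 29.9 in KO and between 28.1 and 28.9 in WT. WT library 1 differed from the other WT libraries in cell type markers: its summed fetal Leydig cell markers were 1.58 times, its summed contractile cell markers 2.05 times and its summed erythroid markers 0.315 times their mean.

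Of the 9 genes, 3 were higher in KO (Irs2, Insr and Igf1r) and 2 were lower (Igfbp2 and Igfbp4). Genes were called at an adjusted p under 0.05 in limma's two-sided moderated test on log2(value + 1), with p-values adjusted by Benjamini-Hochberg across the 15116 genes. Over all genes tested, 34.3% passed it, 17.3% higher and 17.0% lower, so a large share of the transcriptome was called. The median log2 change was 0.09 over the 9 genes and -0.03 over all genes. The KO and WT libraries did not overlap for 6 of the 9 genes, 3 higher (Igf1r, Insr and Irs2) and 3 lower (Igfbp2, Igfbp3 and Igfbp4) in KO. Over all genes tested, 50.3% did not overlap, 24.7% higher and 25.6% lower in KO.

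The changes across the table followed transcript length and GC content. Genes higher in KO had a median transcript length of 5188 nt and a median GC content of 45.4%, while genes lower in KO had 1710 nt and 55.4%. The limma test was therefore repeated after each library had been cleared of its trend with these properties. The trend was fitted to the log2 values taken as deviations from each gene's mean over the libraries. With the trend removed, 11.4% of 14449 genes passed, 5.68% higher and 5.77% lower. Of the 9 genes, Irs2 was then higher, and Igf1 and Igfbp4 were lower. Shares, ratios and sums within a library, and the overlap of libraries, were taken from the values as deposited. The source of the trend was not tested.

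**Figure D1:**
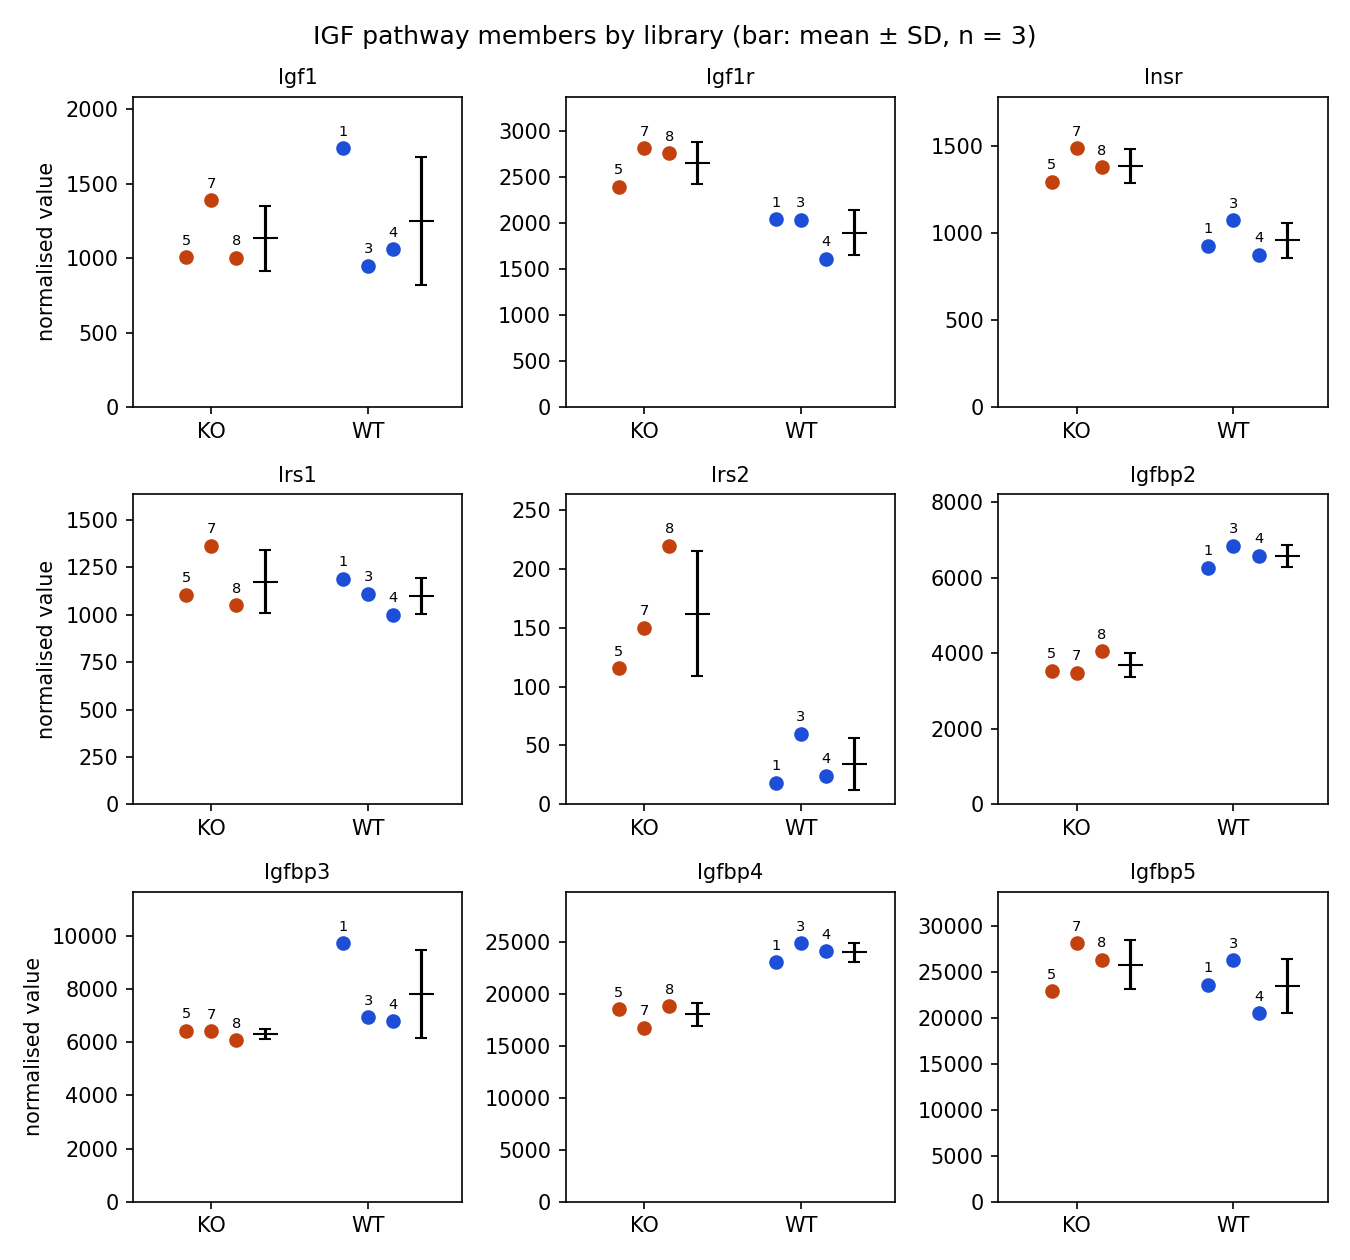
Normalised value (vertical axes, each from 0) of each of the 9 genes in the KO libraries (left, orange) and WT libraries (right, blue). Points are libraries with their numbers, and black bars are the mean ± SD of 3 libraries. Irs2, Insr and Igf1r are higher and Igfbp2, Igfbp3 and Igfbp4 lower in every KO library than in any WT library, while WT library 1 stands high for Igf1 (1739) and Igfbp3 (9717).

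Irs2 showed the widest difference of the 9 genes. Irs2 encodes an adaptor that insulin and IGF1 receptors phosphorylate, and in mice it is known for its part in liver insulin response and in pancreatic beta cell survival. Irs2 (NCBI gene identifier 384783) spans bases 10986964 to 11008430 of chromosome 8 in mm9, the build of all gene coordinates here. It held 115, 150 and 219 in KO libraries 5, 7 and 8, against 18.6, 59.9 and 24.4 in WT libraries 1, 3 and 4. Every KO library was above every WT library. The mean was 162 ± 53.0 in KO and 34.3 ± 22.4 in WT (SD, n = 3 each), a 4.71-fold ratio of means. The log2 change was 2.33 (SE 0.40, limma adjusted p = 0.0027). It was 2.24 (SE 0.38, adjusted p = 0.00737) with the length and GC trend removed. It lay between 1.998 and 2.82 when any 1 library was left out, with adjusted p up to 0.0162. Irs2 also had the lowest values of the 9 genes.

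Irs1, the other adaptor of the pair, is on chromosome 1 from 82229680 to 82288014. It held 1107, 1364 and 1051 in KO, against 1190, 1112 and 1000 in WT. The groups overlapped, and the log2 change was 0.09 (SE 0.12, adjusted p = 0.588). With the trend removed the log2 change was -0.26 (adjusted p = 0.146). Levels of the adaptors were set side by side per kb of their longest protein-coding transcript. On that scale Irs2 made up 13.1%, 13.7% and 23.2% of the sum of Irs1 and Irs2 in KO libraries 5, 7 and 8, against 2.21%, 7.23% and 3.41% in WT libraries 1, 3 and 4. Every KO library had a larger share of Irs2 than any WT library, and the mean was 16.7% ± 5.65 in KO and 4.28% ± 2.62 in WT (SD, n = 3 each). The exact two-sided permutation test gave p = 0.1, the smallest that 3 against 3 libraries can give (0.18 adjusted over the 9 within-library quantities computed).

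The promoters of the adaptors are shown because the genes encode related proteins and yet only Irs2 passed the test. The difference between their log2 changes was not tested with limma. It was compared only through the Irs2 share above, where the exact permutation p of 0.1 was the smallest possible and so could not pass 0.05. Printed are the 250 bases before the annotated start, from RefSeq on GRCm38.p6, whose promoter table had entries for 8 of the 9 genes, all but Insr. Capitals mark CACGTG, the E-box that basic helix-loop-helix factors bind.
Irs2 (chr8:11008930-11009179, minus strand): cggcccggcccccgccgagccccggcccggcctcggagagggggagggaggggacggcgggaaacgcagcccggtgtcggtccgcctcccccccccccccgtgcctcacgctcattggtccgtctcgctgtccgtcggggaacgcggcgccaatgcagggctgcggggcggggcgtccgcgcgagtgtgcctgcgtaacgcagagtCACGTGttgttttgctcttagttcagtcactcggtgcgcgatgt
Irs1 (chr1:82291440-82291689, minus strand): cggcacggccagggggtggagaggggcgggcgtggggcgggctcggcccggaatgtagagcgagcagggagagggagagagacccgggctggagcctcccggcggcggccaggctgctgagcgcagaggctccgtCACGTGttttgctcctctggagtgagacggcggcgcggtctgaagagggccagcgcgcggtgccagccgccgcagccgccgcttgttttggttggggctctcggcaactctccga
Each window held 1 E-box, whose first base lay 44 bases before the start of Irs2 and 115 bases before that of Irs1. The longest stretches that the windows shared were 10 bases long, gtcacgtgtt, which contains the E-box, and tgttttgctc, which does not. CACGTG, which reads the same on both strands, occurred in 6.02% of 32851 promoter windows of this length, so its presence in both adaptors is a description of these windows. TGTTTAC, a core letter string of FOXO sites searched on both strands, was in neither window, and it occurred in 3.17% of all windows.

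Both receptors were higher in KO, by 0.49 (Igf1r) and 0.54 (Insr) on the log2 scale. Igf1r encodes the IGF1 receptor and lies on chromosome 7 from 75097143 to 75378553. It held 2389, 2810 and 2755 in KO libraries 5, 7 and 8, against 2037, 2032 and 1609 in WT libraries 1, 3 and 4. Every KO library was above every WT library. The mean was 2651 ± 229 in KO and 1893 ± 245 in WT (SD, n = 3 each) (SE of the log2 change 0.11, limma adjusted p = 0.00874). Insr, the insulin receptor gene, lies on chromosome 8 from 3150922 to 3279617. It held 1292, 1484 and 1376 in KO, against 924, 1070 and 872 in WT, again without overlap. Its mean was 1384 ± 96.6 in KO and 955 ± 103 in WT (SD, n = 3 each) (SE of the log2 change 0.11, adjusted p = 0.0044). Both calls held when any 1 library was left out, with adjusted p up to 0.0392 for Igf1r and 0.026 for Insr.

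The receptors have some of the longest transcripts of the 9 genes, 11409 nt for Igf1r and 9355 nt for Insr. With the length and GC trend removed, the log2 change was 0.09 for Igf1r (SE 0.07, adjusted p = 0.453) and 0.07 for Insr (SE 0.08, adjusted p = 0.601), and neither call was kept. Per kb of transcript, Igf1r stood above Insr in all 6 libraries. The ratio of Igf1r to Insr per kb was 1.52, 1.55 and 1.64 in KO libraries 5, 7 and 8, against 1.81, 1.56 and 1.51 in WT libraries 1, 3 and 4. The ranges overlapped, with a mean ratio of 1.57 ± 0.0649 in KO and 1.63 ± 0.159 in WT (SD, n = 3 each; exact permutation p = 0.7, 0.787 adjusted over 9 quantities).

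Igf1 was the one ligand among the 9 genes, and its values depended on WT library 1. It lies on chromosome 10 from 87321801 to 87399792 and held 1006, 1388 and 1003 in KO libraries 5, 7 and 8, against 1739, 949 and 1059 in WT libraries 1, 3 and 4. WT library 1 was the highest of all 6, and KO library 7 was the next. The mean was 1132 ± 221 in KO and 1249 ± 428 in WT (SD, n = 3 each), which gave -0.11 on the log2 scale (SE 0.21, limma adjusted p = 0.719). Without WT library 1 the log2 change was 0.16 (adjusted p = 0.437). With the length and GC trend removed it was -0.75 (SE 0.19, adjusted p = 0.0304), and with that library also left out -0.49 (SE 0.10, adjusted p = 0.00862). The Igf1 transcript is long (7052 nt) and the poorest of the 9 in GC (38.0%). The summed fetal Leydig cell markers were 49286, 54451 and 70132 in KO libraries 5, 7 and 8, against 107835, 65736 and 70413 in WT libraries 1, 3 and 4. In the same order, the summed germ cell markers were 22490.4, 35486.1 and 20497.4 in KO, against 30788.5, 19401.5 and 24092.6 in WT. WT library 1 was also the highest in summed contractile cell markers (26038) and the lowest in summed erythroid markers (37366). The part of any of these cell types in the Igf1 values was not tested.

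The binding proteins were the most abundant of the 9 transcripts, and their mixture was also set side by side within each library. Igfbp2, an RGD-containing binding protein widely expressed in fetal tissues, lies on chromosome 1 from 72871054 to 72899045. It held 3544, 3490 and 4050 in KO libraries 5, 7 and 8, against 6270, 6849 and 6588 in WT libraries 1, 3 and 4. The KO libraries were well below the WT libraries and both groups were tight. The mean was 3695 ± 309 in KO and 6569 ± 290 in WT (SD, n = 3 each), which gave -0.83 on the log2 scale (SE 0.09, limma adjusted p = 0.000802). The call held without each library in turn (adjusted p up to 0.0084). Igfbp2 has the shortest transcript of the 9 (1307 nt) and the highest GC content (62.1%). Once the trend was removed, the difference was -0.24 (log2, SE 0.10, adjusted p = 0.132), and -0.32 (SE 0.09, adjusted p = 0.0342) with WT library 1 also left out.

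Igfbp4, which binds both IGFs and is cleaved by the protease PAPP-A, lies on chromosome 11 from 98902574 to 98913957. It held 18557, 16794 and 18832 in KO, against 23089, 24909 and 24121 in WT. All KO libraries were below all WT libraries. The mean was 18061 ± 1106 in KO and 24040 ± 913 in WT (SD, n = 3 each), which gave -0.41 on the log2 scale (SE 0.10, limma adjusted p = 0.00911). With the trend removed the log2 change was -0.36 (SE 0.08, adjusted p = 0.0247), so the call was kept on both scales. It was also kept without each library in turn (adjusted p up to 0.0379).

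The promoters of the 2 binding proteins that were lower in KO are printed as a contrast to each other, with CACGTG and TATAAA in capitals.
Igfbp2 (chr1:72824230-72824479, plus strand): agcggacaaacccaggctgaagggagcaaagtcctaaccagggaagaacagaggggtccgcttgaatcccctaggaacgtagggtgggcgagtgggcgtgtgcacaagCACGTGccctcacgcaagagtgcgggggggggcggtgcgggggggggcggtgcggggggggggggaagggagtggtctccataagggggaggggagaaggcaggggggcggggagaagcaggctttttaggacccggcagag
Igfbp4 (chr11:99040994-99041243, plus strand): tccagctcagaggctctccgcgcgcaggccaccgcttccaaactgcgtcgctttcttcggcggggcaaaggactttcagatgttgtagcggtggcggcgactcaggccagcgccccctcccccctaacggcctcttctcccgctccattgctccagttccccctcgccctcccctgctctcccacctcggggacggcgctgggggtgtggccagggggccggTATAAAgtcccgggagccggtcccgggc
The Igfbp2 window, the upstream one of 2 annotated for this gene, held an E-box 142 bases before the start and no TATAAA. The Igfbp4 window held TATAAA 28 bases before the start and no E-box. TATAAA on either strand occurred in 12.4% of all windows. GGGCGG, the GC box bound by Sp factors, occurred on either strand in 32.7% of all windows and in those of 4 genes, Igf1r, Irs1, Irs2 and Igfbp2.

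Igfbp3, the main carrier of IGFs in serum, lies on chromosome 11 from 7106096 to 7113926. It held 6433, 6410 and 6075 in KO libraries 5, 7 and 8, against 9717, 6937 and 6779 in WT libraries 1, 3 and 4. The groups did not overlap, but the gap was narrow beside the height of WT library 1. The mean was 6306 ± 200 in KO and 7811 ± 1652 in WT (SD, n = 3 each), which gave -0.29 on the log2 scale (SE 0.13, limma adjusted p = 0.112), and -0.12 (adjusted p = 0.413) without WT library 1. Igfbp5, a binding protein with affinity for extracellular matrix, lies on chromosome 1 from 72904639 to 72921439. It held 22911, 28137 and 26318 in KO, against 23617, 26312 and 20506 in WT. The groups overlapped, and the log2 change was 0.14 (SE 0.12, adjusted p = 0.415).

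Igfbp2 and Igfbp5 are neighbours, 5593 bases apart in mm9 with 0 other genes of the table between them. Per kb of transcript, the log2 ratio of Igfbp5 to Igfbp2 was 0.49, 0.81 and 0.50 in KO libraries 5, 7 and 8, against -0.29, -0.26 and -0.56 in WT libraries 1, 3 and 4. Igfbp5 was thus the more abundant of the pair in every KO library, and Igfbp2 in every WT library. The mean log2 ratio was 0.60 ± 0.18 in KO and -0.37 ± 0.17 in WT (SD, n = 3 each; exact permutation p = 0.1, 0.18 adjusted over 9 quantities). The difference between their log2 changes was 0.97 as deposited and 0.11 with the length and GC trend removed.

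Of the sum of Igfbp2 to Igfbp5 per kb, Igfbp2 made up 19.6% ± 1.13 in KO and 27.3% ± 1.603 in WT (SD, n = 3 each). Igfbp5 made up 29.7% ± 2.70 in KO and 21.2% ± 1.82 in WT. Neither share overlapped between genotypes (exact permutation p = 0.1 for each, 0.18 adjusted over 9 quantities). The shares and the sum are of the values as deposited and were not computed with the length and GC trend removed. With it removed, the log2 change was -0.24 for Igfbp2 and -0.13 for Igfbp5. Igfbp4 made up 32.7% ± 2.05 in KO and 34.1% ± 1.89 in WT, and Igfbp3 18.1% ± 1.10 in KO and 17.5% ± 3.41 in WT (exact permutation p = 0.5 and 0.8). The sum itself was 14440 ± 442 in KO and 18437 ± 774 in WT, without overlap (exact permutation p = 0.1).

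**Figure D2:**
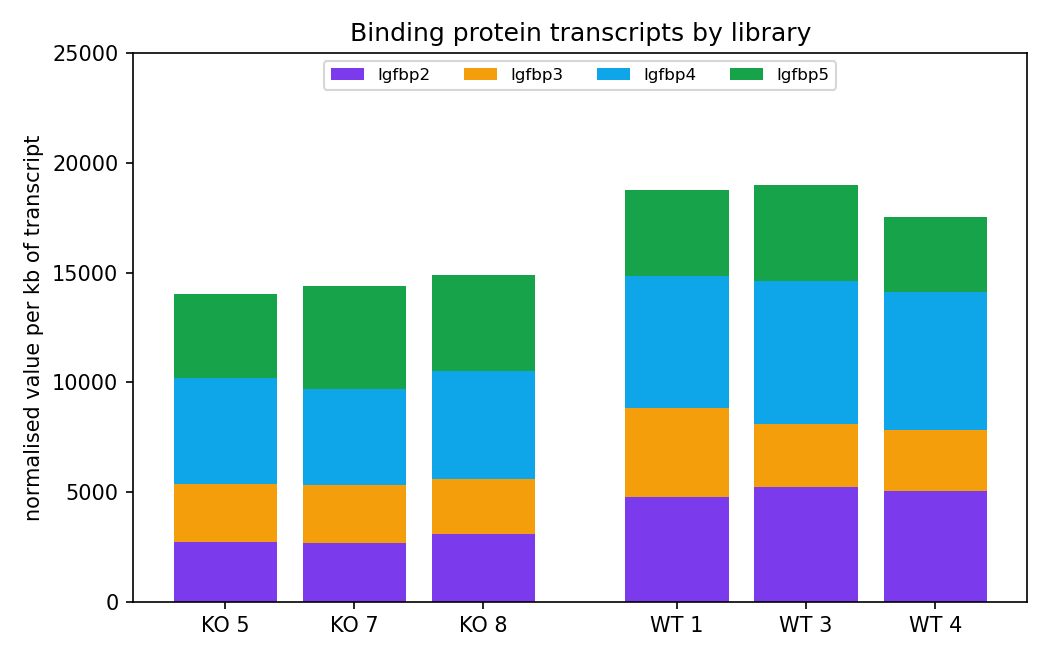
Normalised value per kb of transcript (vertical axis from 0) of Igfbp2, Igfbp3, Igfbp4 and Igfbp5, stacked in each KO library (left) and WT library (right). The summed bars reach 14027 to 14906 in KO and 17552 to 18988 in WT, and the Igfbp2 part is smaller in each KO library than in any WT library.

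Per kb of transcript, and averaged over all 6 libraries, the levels ran from Igfbp4 (5495) through Igfbp5 (4101), Igfbp2 (3926) and Igfbp3 (2916) to Igf1r (199), Igf1 (169), Insr (125), Irs1 (124) and Irs2 (15.5). The library ranges of neighbours in this order overlapped except between Igfbp3 and Igf1r and between Irs1 and Irs2. Insr and Irs1 were each the higher of the pair in 3 libraries. KO library 7 had the highest KO value of Igf1, Igf1r, Insr, Irs1 and Igfbp5 and the lowest of Igfbp2 and Igfbp4.

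Genes with the most similar pattern to Igf1 were sought by the root mean square difference of log2(value + 1), centred on each gene's own mean, over the 6 libraries. They were Fhl1 (0.068), Pnldc1 (0.0723) and Liph (0.0732), against a spread of 0.315 for Igf1 itself. For Igf1r they were Fbn2 (0.0439), Sel1l (0.0494) and Zfp704 (0.0521), against a spread of 0.28. Fhl1 had 803, 1016 and 800 in KO libraries 5, 7 and 8, against 1494, 739 and 828 in WT libraries 1, 3 and 4, with WT library 1 the highest as for Igf1. These are the closest of 15116 genes over 6 libraries, and the libraries share their normalisation, while their depth is unknown.

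A further 61 genes of the pathway were listed by role, of which 56 passed the filter. Of these 56, 17 were higher and 9 lower in KO and 30 did not pass, where 17.3% of all genes were higher and 17.0% lower. The list had a median log2 change of 0.16 against -0.03 over all genes. With the trend removed, 2 of the 56 were higher and 5 lower, where 5.68% of all genes were higher and 5.77% lower (median -0.03, and -0.01 over all genes). The 17 higher genes had a median transcript length of 7161 nt and the 9 lower genes 1997 nt. The list thus split along transcript length as the whole table did.

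**Figure D3:**
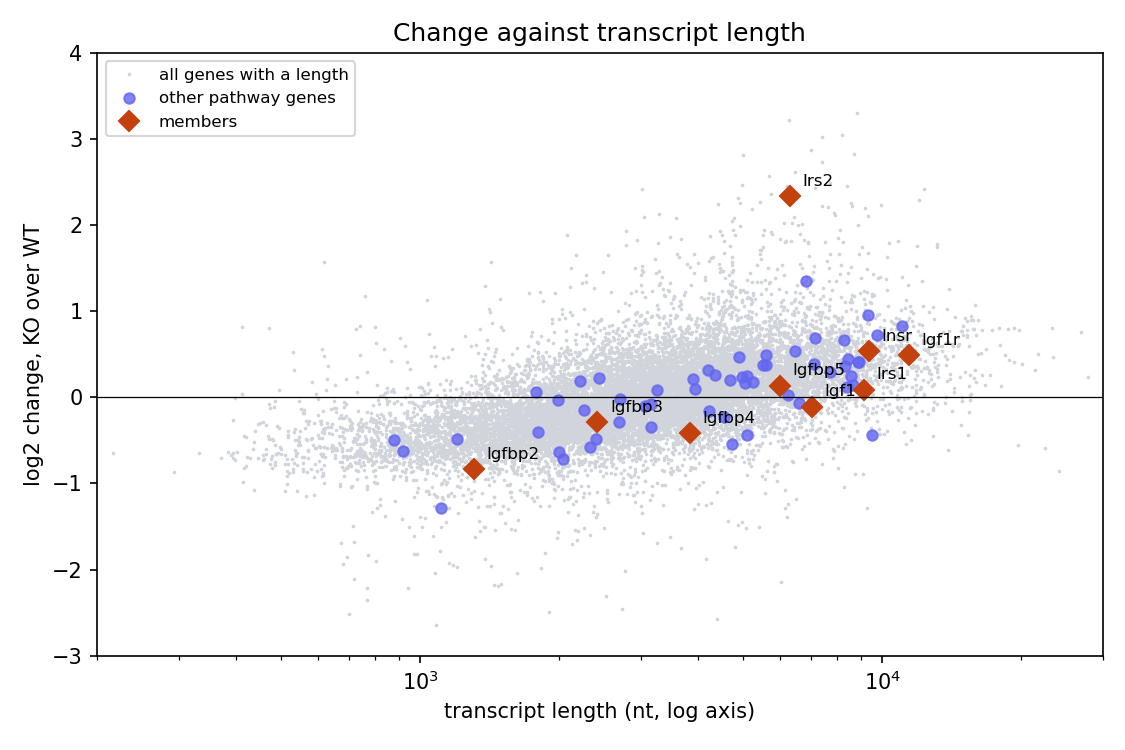
Log2 change of KO over WT (vertical axis) against transcript length in nt (horizontal log axis) for 14449 genes with a length (grey), the other tested pathway genes (blue) and the 9 genes (orange diamonds, named). Of all genes, 5 lie outside the axes. Long transcripts sit higher than short ones, Igfbp2 lies on the short side and Igf1r on the long side, and Irs2, at 2.33, lies above most genes of its length.

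Among ligands, Igf2, the main fetal growth factor of the family and an imprinted gene, was lower in KO. It held 36884, 38332 and 37888 in KO libraries 5, 7 and 8, against 58342, 55677 and 51278 in WT libraries 1, 3 and 4. The groups were well apart, with a mean of 37701 ± 742 in KO and 55099 ± 3567 in WT (SD, n = 3 each). The log2 change was -0.55 (SE 0.11, limma adjusted p = 0.00473), and -0.56 (adjusted p = 0.0109) with the trend removed. An antisense gene overlaps Igf2, and the kit named in the labels does not mark strand, so reads of the pair cannot be told apart. Per kb, Igf2 exceeded Igf1 by 50.8 ± 8.32 times in KO and 70.0 ± 18.9 times in WT (SD, n = 3 each; exact permutation p = 0.3, 0.45 adjusted over 9 quantities). Igf2r, the receptor that takes IGF2 to lysosomes, averaged 4896 ± 537 in KO and 3700 ± 472 in WT (log2 0.41, adjusted p = 0.0228). Its call ended without KO library 7, KO library 8 or WT library 4 (adjusted p up to 0.0986), without a mean-dependent prior (0.0722) and with the trend removed (log2 0.09, adjusted p = 0.536). Its locus also has an antisense RNA, Airn.

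The other binding proteins that passed the filter were both lower. Igfbp6, which prefers IGF2, held 233, 258 and 273 in KO, against 784, 528 and 573 in WT. Its log2 change was -1.28 (SE 0.16, adjusted p = 0.00129), and -0.66 (adjusted p = 0.0135) with the trend removed. Igfbp7, a related protein with low affinity for IGFs, averaged 3203 ± 335 in KO and 4470 ± 210 in WT (log2 -0.48, adjusted p = 0.00449), but its log2 change was 0.10 (adjusted p = 0.536) with the trend removed. Of 5 genes for proteases of binding proteins and their inhibitors, 1 was higher and 1 lower, where 17.3% of all genes were higher and 17.0% lower. With the trend removed 2 were lower, where 5.77% of all genes were. Pappa, the gene of the protease that cleaves Igfbp4 and Igfbp5, averaged 291 ± 30.6 in KO and 163 ± 9.37 in WT (log2 0.83, adjusted p = 0.00291), and its log2 change was 0.33 (adjusted p = 0.126) with the trend removed. Htra1, a secreted serine protease, averaged 1524 ± 129 in KO and 2498 ± 93.1 in WT (log2 -0.72, adjusted p = 0.00143), and remained lower with the trend removed (log2 -0.35, adjusted p = 0.0416). Pappa2, a protease related to PAPP-A and named for its change between settings, held 69.4, 87.9 and 81.2 in KO, against 115, 102 and 106 in WT. Its log2 change was -0.44 (adjusted p = 0.0961) as deposited and -0.86 (adjusted p = 0.0141) with the trend removed.

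Downstream of the adaptors, 8 of 15 genes of the PI3 kinase branch were higher and 1 lower, and with the trend removed 1 was higher (Foxo3). The shares over all genes tested, for this and the next branch, were 17.3% higher and 17.0% lower. With the trend removed they were 5.68% and 5.77%. Foxo3, a transcription factor that AKT keeps out of the nucleus, held 358, 390 and 479 in KO, against 151, 182 and 144 in WT, the KO libraries all above the WT ones. Its log2 change was 1.35 (SE 0.16, limma adjusted p = 0.00108), and 1.15 (adjusted p = 0.00343) with the trend removed. Pdpk1, the kinase that activates AKT, averaged 992 ± 129 in KO and 611 ± 42.9 in WT (log2 0.69, adjusted p = 0.0026), and its log2 change was 0.24 (adjusted p = 0.144) with the trend removed. In the mTOR branch, 2 of 9 genes were higher and 2 lower, and with the trend removed 1 was higher (Rictor) and 1 lower (Eif4ebp1). Rictor, a subunit of mTOR complex 2, averaged 1213 ± 123 in KO and 622 ± 18.2 in WT (log2 0.96, adjusted p = 0.000802; 0.37 and 0.0155 with the trend removed). Eif4ebp1, a repressor of translation that mTOR inactivates, averaged 2578 ± 206 in KO and 4007 ± 404 in WT (log2 -0.63, adjusted p = 0.00222; -0.52 and 0.00896 with the trend removed). Rps6, a ribosomal protein gene with many processed copies whose reads may be split, had a log2 change of -0.50 (adjusted p = 0.00828), and -0.08 (adjusted p = 0.641) with the trend removed.

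In the Ras and MAP kinase branch, 4 of 9 genes were higher and 2 lower, where 17.3% of all genes were higher and 17.0% lower. These calls were all lost with the trend removed, where the lowest adjusted p of the 9 was 0.0565. Braf, a kinase below Ras, and Sos2, which loads Ras with GTP, had log2 changes of 0.72 and 0.50 (adjusted p = 0.00346 and 0.00556), against 0.14 and 0.07 with the trend removed. Map2k2, a MAP kinase kinase, had a log2 change of -0.48 (adjusted p = 0.0047), and -0.13 with the trend removed. Among 9 tested adaptors and regulators at the receptor, Ptpn11, the phosphatase SHP2, was the one that passed (log2 0.38, adjusted p = 0.0129; 0.18 and 0.142 with the trend removed). Its call also ended without KO library 5 or WT library 4 (adjusted p up to 0.0637). Of the 3 RNA-binding proteins of Igf2 mRNA, Igf2bp2, the most abundant per kb, averaged 4218 ± 212 in KO and 3661 ± 399.8 in WT (log2 0.21, adjusted p = 0.124), and the other two did not pass either (adjusted p of at least 0.0599).

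Marker genes of several cell types moved with the genotype in the values as deposited, in which 17.3% of all genes were higher and 17.0% lower. Of 6 interstitial progenitor markers 3 were higher in KO, and their summed value lay between 33402 and 34107 in KO and between 28926 and 29925 in WT. Of 6 contractile cell markers 4 were lower, with sums between 7924 and 8948 in KO and between 11267 and 26038 in WT. Of 6 macrophage markers 3 were lower, with sums between 1090 and 1199 in KO and between 1517 and 2057 in WT. Of 6 ovarian supporting cell markers 2 were lower, with sums between 3143 and 3368 in KO and between 4816 and 5440 in WT. Sertoli cell sums, between 64906 and 87954 in KO and between 79261 and 109145 in WT, overlapped, and the lowest adjusted p of the 6 markers was 0.0627 (Cst9). Germ cell markers (1 of 6 higher), endothelial markers (1 higher and 1 lower of 6) and fetal Leydig cell markers (1 of 6 lower) had sums that overlapped between genotypes. So did erythroid markers, with sums between 83973 and 123437 in KO and between 37366 and 140611 in WT, and mesonephric epithelium markers, with sums between 237 and 468 in KO and between 277 and 730 in WT. All 4 measured male sex chromosome genes were higher in KO, with sums between 3785 and 5056 in KO and between 2585 and 2984 in WT. With the trend removed, fewer of these calls were kept, where 5.68% of all genes were higher and 5.77% lower. Then 1 male sex chromosome gene was higher (Eif2s3y), while the interstitial progenitor markers Nr2f2, Pdgfra and Lhx9, called as deposited, did not pass (adjusted p of at least 0.306). Lower were 2 contractile cell markers (Des and Tagln), 2 macrophage markers (Csf1r and C1qa), 1 ovarian supporting cell marker (Wnt4) and 1 endothelial marker (Emcn). Ddx4 of the germ cell list and Hsd3b1 of the fetal Leydig cell list did not pass (adjusted p = 0.165 and 0.223). No marker was at 0 in all libraries. In whole gonads fewer cells of a type and less RNA per cell cannot be told apart, and the part of cell composition in the IGF genes was not tested.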

How the data were processed

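RNA from 3 KO and 3 WT gonad samples was sequenced. The deposited table gives a signal per gene, named there as pseudo-counts scaled by the upper quartile, and 0 of its value columns went unmatched to a library. Per the submitters' processing notes, CASAVA 1.8.2, edgeR 2.6.2 and build mm9 are named; the sources used here give neither the role of each nor an aligner or annotation. Whole reads could not be recovered, so no count model was run and no interval for counting error is given. Gene coordinates are those of the table.

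Values were tested as log2(value + 1) with limma 3.58.1 (mean-dependent prior) in R 4.3.3, over the 15116 genes with at least 10 in at least 3 libraries; fold changes on this scale understate changes of low genes. Ratios and shares within a library were compared by exact permutation tests with SciPy 1.17.1 in Python 3.11.15; these quantities were chosen after the values were seen. Transcript length and GC content came from the longest protein-coding transcript per NCBI gene in GENCODE vM21, found for 95.6% of genes tested; the trend was removed with natural splines (4 degrees of freedom per property). The test was tried on simulated data with known changes. It called 83% of the 2-fold and 48% of the 1.5-fold changes, and 9 of its 140 calls were false. The changes were placed only in well-expressed genes, so recovery among low genes such as Irs2 was not measured. Smaller changes can thus be missed. Far fewer genes were changed in the simulation than were called here, so these shares may not carry over. Alternatives were other pseudocounts, filters, scalings, spread estimates, library weights, the trend removal and each library left out. Named genes were the members, both synthase genes, up to 3 called genes per role (or the most abundant where 0 passed) and the 3 nearest patterns to Igf1 and Igf1r. Of these, 1 is left out here. The members, lists and alternatives were chosen with earlier results of these data known. Nothing in the labels says which libraries shared a litter or batch. The limma p-values set the difference between genotypes against the spread between these libraries, moderated across genes.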

Additional observations from a re-analysis of the deposited data

How the results depend on the processing

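With each of the other pseudocounts, filters, scalings, spread estimates and weights, and without each library in turn, 3 of the 9 genes were higher and 2 lower. With the length and GC trend removed, 1 was higher (Irs2) and 2 were lower (Igf1 and Igfbp4). With WT library 1 also left out, 1 was higher (Irs2) and 3 were lower (Igf1, Igfbp2 and Igfbp4). Over all genes, 820 were then higher and 834 lower (787 and 995 with WT library 1 also left out), against 2609 and 2571 as deposited. Scaling to equal totals moved the median log2 change of all genes by 0.1 and gave 3507 higher and 1687 lower (67.5% higher, against 50.4%). With 1 library left out, between 1635 and 2495 genes were higher and between 1397 and 2546 lower, both lowest without WT library 4. Of the other pathway genes, 2 were higher with the trend removed, with or without WT library 1, and 5 lower with all libraries; leaving out 1 library gave 10 (WT library 4) to 19 higher.

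Some directions reversed. Igf1 lay between -0.28 and 0.16 (log2) with 1 library left out, and Irs1 between -0.025 and 0.16. With the trend removed, the log2 changes were -0.26 for Irs1, -0.13 for Igfbp5 and 0.10 for Igfbp7, and with WT library 1 also left out -0.23, -0.14 and 0.013, and 0.027 for Igfbp3. The cause was not tested. Of 448 alternative values of 28 named genes, 405 kept their direction and side of the threshold. No paired analysis was possible because the genotypes share no replicate number. With depth unknown, the precision of low genes such as Irs2 cannot be stated beyond the spread between libraries.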

Other observations

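A few genes of the pathway were low, and of these Igfbp1, Igfals and Irs4 did not pass the filter and were not tested. Igfbp1, a binding protein known from liver and decidua, held 5.10, 5.92 and 3.95 in KO libraries 5, 7 and 8, against 32.2, 3.09 and 15.5 in WT libraries 1, 3 and 4. Igfals, which encodes the acid-labile subunit of the circulating IGF complex, was at most 6.17 in KO and 10.1 in WT. Irs4, an X-linked adaptor, was at most 16.6 in KO and 10.02 in WT. Ins2, an insulin gene, passed the filter with 10.2, 6.36 and 7.67 in KO, against 8.84, 20.03 and 11.7 in WT, which overlapped. Insrr, an orphan relative of the insulin receptor, also passed the filter. It held 31.7, 39.6 and 39.2 in KO, against 90.9, 39.8 and 34.3 in WT, so WT library 1 again stood apart from the rest. Its log2 change was -0.44 (limma adjusted p = 0.366). These genes were chosen after their values were seen.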
